A study of Mus musculus with 4 samples.

Results

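The nuclei described here are glutamatergic neurons of the mouse deep cerebellar nuclei that were chosen by their counts for 4 genes, Maf, Kitl, Prox1 and Cpne4. They came from a deposited table of 480 nuclei that the submitters named vglut2, after the vesicular glutamate transporter Slc17a6. In that table each of 22 marker genes was put on a log scale (natural log of 1 plus counts per 10000) and standardised over the nuclei, and the genes were averaged in 5 sets. A nucleus belonged to the group when the mean of Maf, Kitl, Prox1 and Cpne4 (set A) was the highest of its 5 scores and at least 0.3. The rule took 103 of the 480 nuclei, and the 4 libraries held 21494 nuclei in all. Sets B, C, D and E, named after Kynu and Igf1, Lmx1a and Pax6, Rorb and Sema3a, and Zfhx3 and Zfhx4, took 64, 65, 65 and 37 nuclei, and 146 nuclei reached the threshold for none. The score of the members ran from 0.305 to 2.74 with a median of 0.818. Near the threshold, 13 members lay within 0.1 above it, and 13 nuclei led by set A within 0.1 below it. The 5 lowest members had scores of 0.305, 0.310, 0.347, 0.349 and 0.360, and the 5 nuclei just outside had 0.291, 0.287, 0.280, 0.275 and 0.272.

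Nuclei were isolated from dissected deep cerebellar nuclei and sequenced in droplets, so that each value is a count of transcripts in 1 nucleus. All mice were C57BL/6J. The lines were Ucn3-Cre, with Cre recombinase driven by the urocortin 3 gene (Tg[Ucn3-cre]KF31Gsat), and vGluT2-Cre, with Cre driven by Slc17a6 (Tg(Slc17a6-icre)1Oki), and both were crossed to Ai32, which makes channelrhodopsin fused to EYFP after recombination. No treatment separated the groups, and the labels record no sorting of nuclei. Ucn3-Cre replicate 1 came from a female of 3 months with an iodixanol gradient, and Ucn3-Cre replicate 2 from a male of 3 months with a sucrose cushion. The vGluT2-Cre libraries came from a male of 2 months (replicate 1) and a female of 2.5 months (replicate 2), both with the sucrose cushion. Age therefore differed with the line, and 1 library was extracted in another way. Where 4 values follow each other below, they stand for Ucn3-Cre replicates 1 and 2 and then vGluT2-Cre replicates 1 and 2, and CPM are the summed counts of the nuclei named, scaled to a total of 1000000.

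Glutamatergic neurons of these nuclei arise from the rhombic lip and carry the output of the cerebellum to the thalamus and brainstem. Maf is a basic leucine zipper transcription factor, Prox1 a homeobox transcription factor, and Cpne4 a copine, a protein that binds membrane lipids when calcium rises. Kitl encodes stem cell factor, the ligand of the receptor tyrosine kinase Kit, which in the cerebellum is known from inhibitory interneurons of the molecular layer.

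The 4 genes that chose the members were, by that choice, high in them, and their values are a description without a test. Maf (chromosome 8, 115682942 to 115707794, minus strand) stood at 94.6, 89.9, 102 and 105 CPM in members and at 9.94, 11.3, 14 and 17.2 CPM in the other 377 nuclei of the table. Kitl (chromosome 10, 100015630 to 100100416, plus strand) stood at 188, 103, 113 and 165 CPM against 12.5, 21.9, 28.6 and 25.7 CPM. Prox1 (chromosome 1, 190118035 to 190170714, minus strand) stood at 49.8, 77.2, 37.9 and 34.2 CPM against 1.23, 4.92, 3.56 and 2.23 CPM. All 3 were above the other nuclei in every library, and Prox1 varied the most between libraries relative to its mean. Cpne4 (chromosome 9, 104547286 to 105034544, plus strand) stood at 312, 191, 385 and 224 CPM against 32.3, 60.3, 93.6 and 37.1 CPM. Of the 4 genes Cpne4 was the least particular to the members, since nuclei of set B held 166 ± 95.3 CPM (SD, n = 4 libraries). These positions were read from the GENCODE vM21 annotation of GRCm38.

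**Figure D1:**
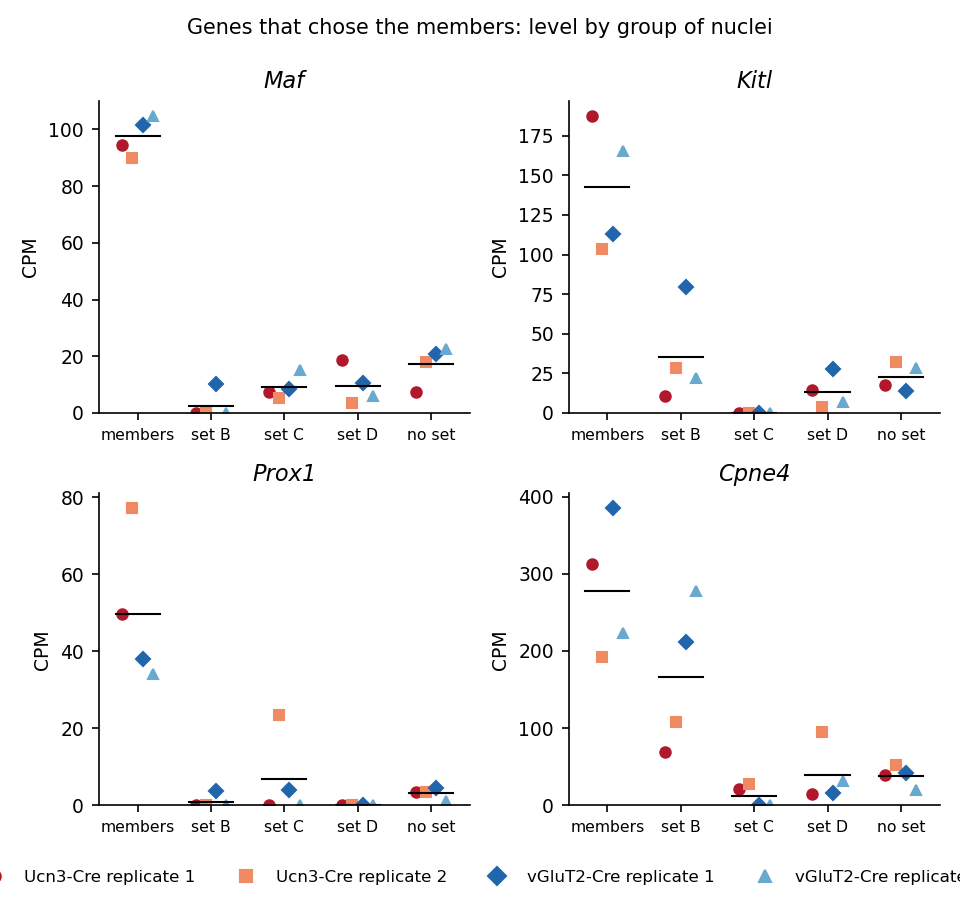
Levels of Maf, Kitl, Prox1 and Cpne4 in CPM (vertical axes) in members, in nuclei of sets B, C and D and in nuclei of no set; each point is 1 library and each bar the mean of 4. Maf, Kitl and Prox1 lie highest in members in every library, and Cpne4 also reaches a mean of 166 CPM in set B.

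Few members carried the whole set. Counts for 1 of the 4 genes were present in 7 members, for 2 in 54, for 3 in 39 and for 4 in 3 members. Of the other nuclei 212 had counts for none and 123 for 1. Kitl was counted in 76.7% of members, Cpne4 in 58.3%, Maf in 56.3% and Prox1 in 45.6%, against 16.7%, 21.8%, 14.6% and 3.98% of the other nuclei. As a comparison with another cell type, 13161 nuclei with counts for at least 4 of 8 oligodendrocyte markers were taken from the same libraries. Their counts hold transcripts of that cell type as well as any free RNA, and the members were chosen by the 4 genes compared. All 103 members and the 7040 of these nuclei that were deep enough were thinned to 2000 counts, and 6121 shallower ones were left out. At that depth Kitl was counted in 20.4% of members and 2.1% of the oligodendrocyte nuclei, Maf in 18.4% and 1.51%, and Cpne4 in 26.2% and 0.568%. Prox1 went the other way, with 10.7% of members and 29.7% of oligodendrocyte nuclei, so that its share in members lay below that of a glial type.

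The label of glutamatergic neuron was checked against the markers of other cells. Slc17a6 was counted in 85.4% of members and 80.9% of the other nuclei, at 167, 165, 272 and 335 CPM against 164, 202, 242 and 247 CPM, and the difference did not pass the test (log2 fold change 0.10 ± 0.13 SE, adjusted p = 0.867). The inhibitory genes Gad1, Gad2 and Slc32a1 were counted in 4.85, 4.85 and 2.91% of members and in 12.7, 17.2 and 9.28% of the other nuclei. The 6 inhibitory genes together summed to 23.6 to 56.0 CPM in members and 104 to 160.5 CPM in the other nuclei, ranges that did not overlap. YFP, the reporter, stood at 27.1, 24.5, 53.6 and 37 CPM in members and 13.8, 13.6, 58.6 and 36.3 CPM in the other nuclei (adjusted p = 0.898), and Kit at 5.97, 4.48, 4.39 and 0 CPM, in 4.85% of members. Ucn3 was not analysed here.

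Markers of oligodendrocytes and astrocytes were low in the members. The 8 oligodendrocyte markers summed to 28.4 to 322 CPM in members and 102 to 203 CPM in the other nuclei, against 20410 to 22750 CPM in oligodendrocyte nuclei. The 7 astrocyte markers summed to 14.2 to 46.3 CPM in members and 30.3 to 85.3 CPM in the other nuclei, and 3 of the 5 oligodendrocyte precursor markers (Pdgfra, Cspg4 and C1ql1) were at 0 in all 4 libraries of members. The 6 microglia markers summed to 65.3 to 226 CPM in members, highest in Ucn3-Cre replicate 1 and with Tmem119 at 0 in all 4 libraries, and to 82.9 to 122 CPM in the other nuclei. The 5 endothelial markers reached 104 CPM in the members of vGluT2-Cre replicate 2 and 0 to 20.9 CPM in those of the other libraries. Among markers of other cerebellar neurons, the 5 granule cell genes in the table summed to 127.5 to 182 CPM in members and 183 to 233 CPM in the other nuclei. Those of Purkinje cells summed to 92.7 to 150 CPM against 58.5 to 95.2 CPM, and those of unipolar brush cells to 872 to 1179 CPM against 724 to 930 CPM. The part of other cell types in the results below was not tested. No member was among the nuclei with the highest doublet scores, of which the table held 9, and no cell barcode of the table occurred in more than 1 library.

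Members made up 20 of 88 nuclei (22.7%, exact Clopper-Pearson 95% interval 14.5 to 32.9) in Ucn3-Cre replicate 1 and 38 of 149 (25.5%, 18.7 to 33.3) in Ucn3-Cre replicate 2. In the vGluT2-Cre libraries they made up 32 of 161 (19.9%, 14.0 to 26.9) and 13 of 82 (15.9%, 8.72 to 25.6). Both Ucn3-Cre shares were higher than both vGluT2-Cre shares, but all 4 intervals overlapped. The means were 24.1% ± 1.96 and 17.9% ± 2.84 (SD, n = 2 each), with an exact permutation p of 0.333 (two-sided), the smallest that 2 libraries against 2 allow. This separation was lost without Kitl, Prox1 or Cpne4 in the set and with no threshold on the score (exact p = 0.667, 0.667, 1 and 1). Intervals cover counting error only. The median member had 10507.5 counts and 4339 genes, and the median other nucleus 9048 counts and 3971 genes. Nuclei of set B were shallower, with a median of 6053 counts, and nuclei of no set deeper, with 13261.

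Members also lay together by genes that the rule did not use. Among the 15 nearest neighbours of a nucleus, taken over 15 principal components of variable genes without the 22 set genes, 58.7, 57.9, 53.8 and 61.0% of the neighbours of members were members. For the other nuclei the share was 10.6, 13.2, 14.9 and 13.2%, and members were 21.5% of the table. The 2 sets of values did not overlap. Most of the remaining neighbours of members, 29.2 to 32.1%, were nuclei of no set, and 4.00 to 8.33% were nuclei of set B. Of all 480 nuclei, 146 belonged to no set and 64 to set B. The share of nuclei of no set among these neighbours was thus close to their share of all nuclei. That of set B lay below its share of all nuclei in every library.

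**Figure D2:**
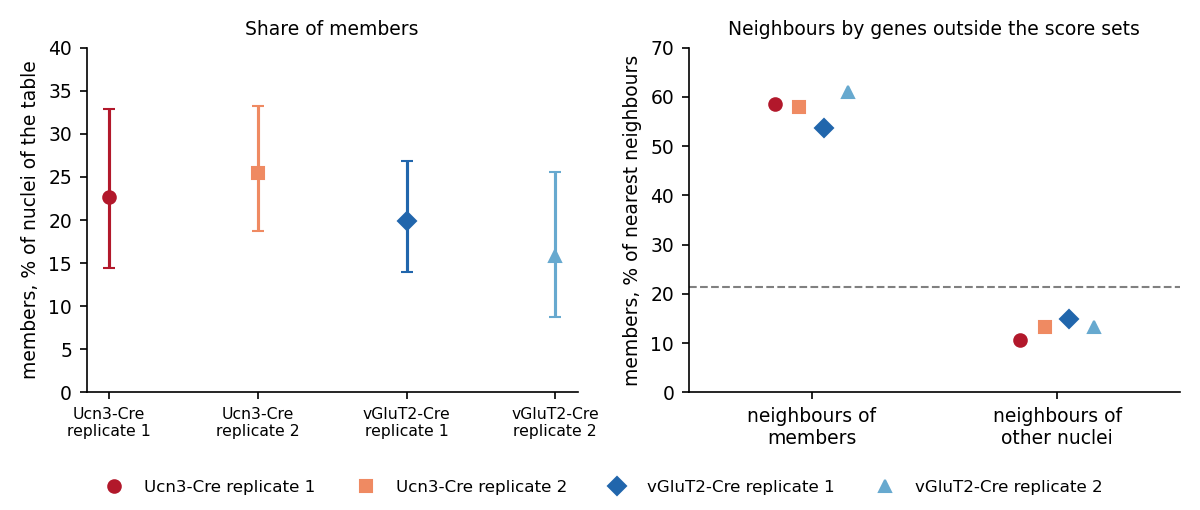
Left, members as a percentage of the nuclei of the table in each library, with exact 95% intervals, which overlap in all 4 libraries. Right, members as a percentage of the 15 nearest neighbours of members and of other nuclei, 1 point per library, with the share of members in the table (21.5%) as a dashed line; the neighbours of members hold 53.8 to 61.0% members.

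Among the genes that separated the members from the other nuclei of the table, Cdh8, Cntn3, Slit3 and Nr2f2 were higher in members, and lower were Grm7, Ebf2, Nrg1, Cntnap4 and Fam19a2. Counts were summed per library for members and for the other nuclei, and compared by edgeR's quasi-likelihood test with the library as block, without the 22 set genes. Of 7647 genes tested, 147 were higher in members (1.92%) and 184 lower (2.41%) at an adjusted p of 0.05. The set genes were themselves drawn from types of these nuclei, so the p-values are too small, and they describe these nuclei. Most genes named below were picked for large called changes, so groups without overlap are in part built into that choice. How many of all genes tested had separate groups was not counted. DESeq2 called 58 and 73 genes, all 131 among those of edgeR, and without vGluT2-Cre replicate 1 edgeR called 88 and 127.

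Among the 15 genes that rose most, Cdh8, a classical cadherin, stood at 503, 352, 591 and 616 CPM in members and 259, 173, 258 and 231 CPM in the other nuclei. Its groups did not overlap, and the log2 fold change was 1.15 ± 0.11 (SE, adjusted p = 8.98e-10). Cntn3, a contactin of the neuronal surface, stood at 359.6, 429, 474 and 438 CPM against 136, 182, 225 and 240.1 CPM (1.11 ± 0.12 SE, adjusted p = 6.07e-09). Again the lowest library of members lay above the highest of the other nuclei. Hunk, a serine and threonine kinase, stood at 225, 172, 95.1 and 228 CPM against 64.9, 69.7, 44.5 and 84.4 CPM, with vGluT2-Cre replicate 1 the lowest library in both groups. Pdgfc, a ligand of platelet-derived growth factor receptors, was nearly even between libraries, at 127, 124, 148 and 138 CPM in members and 52.2, 42.4, 65.5 and 59.6 CPM in the other nuclei (log2 fold change 1.26). Slit3, a secreted ligand of Robo receptors, stood at 279, 386, 295 and 304 CPM against 128, 169, 134 and 182 CPM (1.04), and Kif26b, a kinesin family member, at 363, 295, 235 and 281 CPM against 129, 125, 150.3 and 152 CPM (1.02). Both groups of both genes were separate.

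The nuclear receptor Nr2f2 stood at 51.9, 46.1, 63.7 and 62.3 CPM in members and 23.9, 17.3, 31.4 and 15.4 CPM in the other nuclei, a log2 fold change of 1.28. Onecut2, a transcription factor of the cut homeobox family, stood at 76.3, 41.1, 68.3 and 71.7 CPM against 14.4, 24.1, 21.1 and 21.3 CPM (1.49). Against the nuclei of no set alone Onecut2 did not pass (log2 fold change 0.79, adjusted p = 0.0938). The largest rise was that of Plekhg1, an exchange factor for small GTPases, at 111, 68, 64.7 and 72.5 CPM against 24.5, 14.5, 24.2 and 35.4 CPM (1.64). Fign, a microtubule-severing enzyme, stood at 186, 73.9, 165 and 87.1 CPM against 31.4, 47.8, 44.9 and 42.7 CPM (1.47), but without Cpne4 in the set its log2 fold change was 0.44 with an adjusted p of 0.294. Plekhg1, Fign, Onecut2 and Cntn3 were also counted in oligodendrocyte nuclei, at means of 679, 298, 152 and 429.9 CPM. The summed oligodendrocyte markers were higher in members than in the other nuclei in Ucn3-Cre replicate 2 (322 against 202 CPM) and lower in the other 3 libraries, and the part of oligodendrocyte RNA in these 4 genes was not tested. The other genes of the 15 were Ccdc62, Galnt18, Tcerg1l, Pdzd2 and Rgmb, a co-receptor of bone morphogenetic proteins, with log2 fold changes of 1.32, 1.30, 1.11, 1.10 and 1.04. With DESeq2, Ccdc62, Tcerg1l, Pdzd2 and Rgmb did not pass (adjusted p = 0.170, 0.155, 0.102 and 0.320). Tcerg1l lost its call under 8 settings, and without Maf in the set its log2 fold change was 0.44 (adjusted p = 0.621). Ccdc62, Pdzd2 and Rgmb each also lost the call when a single library was left out, Ccdc62 without Ucn3-Cre replicate 2 (adjusted p = 0.2095), Pdzd2 without vGluT2-Cre replicate 2 (0.0544), and Rgmb without either of these (0.0891 and 0.0585).

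**Figure D3:**
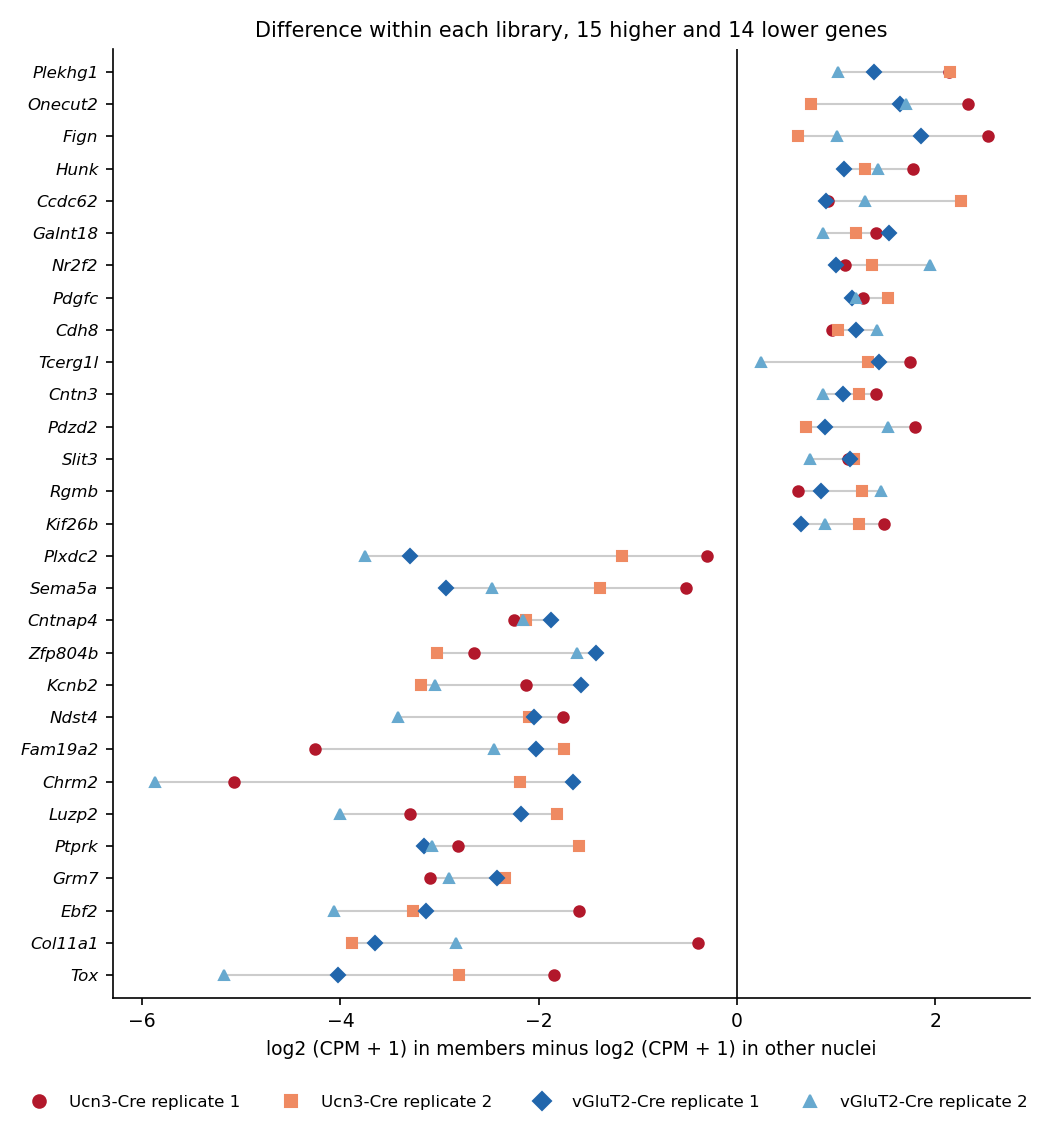
Difference of log2 (CPM + 1) between members and other nuclei within each library (horizontal axis) for the 15 higher and 14 of the 15 lower genes with the largest changes; each point is 1 library and grey lines join the lowest and highest. All points of the upper 15 genes lie above 0 and all points of the lower 14 below 0, as the rule for naming them required, and among the lower genes Col11a1, Plxdc2 and Sema5a come nearest to 0, in Ucn3-Cre replicate 1.

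Among the 15 genes that fell most, Grm7, a presynaptic metabotropic glutamate receptor, stood at 60.5, 69.1, 95.8 and 60.9 CPM in members and 526, 355, 516 and 463 CPM in the other nuclei. The highest library of members was far below the lowest of the other nuclei, and the log2 fold change was -2.61 ± 0.15 (SE, adjusted p = 1.8e-15). Ebf2, an early B-cell factor transcription factor, stood at 130.2, 17, 19.5 and 9.03 CPM against 395, 173, 179 and 167 CPM (-2.68 ± 0.23 SE, adjusted p = 3.58e-11). Ucn3-Cre replicate 1 was the highest library for Ebf2 in both groups, and Ebf2 was counted in 17.5% of members and 58.4% of the other nuclei (9.09 and 48.2% at 5000 counts per nucleus). Cntnap4, a neurexin family protein, stood at 98.6, 86.1, 118 and 79.3 CPM against 473, 381, 433 and 358 CPM (-2.08). Fam19a2, a secreted chemokine-like protein, stood at 17.9, 60.8, 87.9 and 43.8 CPM against 359, 206, 360.3 and 244 CPM (-2.27). Members and other nuclei were separate for both.

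Tox, a transcription factor of the HMG box family, was near 0 in members, so that its fold change rests on few counts. It stood at 5.73, 5.58, 3.56 and 0 CPM against 23.2, 45, 73.4 and 35.1 CPM, with a log2 fold change of -3.82. Zfp804b, a zinc finger protein, stood at 125, 43.3, 119 and 78.1 CPM against 796, 359.5, 319.7 and 241 CPM (-2.15), and Luzp2, a leucine zipper protein, at 13.6, 43.6, 64.2 and 9.46 CPM against 143, 157, 294 and 167 CPM (-2.36). The potassium channel Kcnb2 stood at 38.2, 13.8, 77.5 and 19.3 CPM against 170.1, 134, 232 and 167 CPM (-2.21), and Ndst4, a heparan sulphate sulphotransferase, at 24.6, 19.2, 24.4 and 9.31 CPM against 85.3, 85.7, 104 and 109 CPM (-2.26). None of these 5 genes overlapped between the groups, which their choice by large changes in the same direction in all libraries favours. Others were Col11a1, Ptprk, Chrm2, Sema5a and Plxdc2, with log2 fold changes of -2.79, -2.41, -2.36, -1.84 and -1.83. Plxdc2 did not pass with DESeq2 (adjusted p = 0.247). Grm7, Ptprk, Plxdc2 and Luzp2 were counted in oligodendrocyte nuclei at means of 1057, 863, 1029 and 389 CPM, and the part of oligodendrocyte RNA in their levels was not tested. Of the 30 named genes 2, Ccdc62 and Zfp804b, overlap another protein-coding gene in the annotation.

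The fixed gene lists moved in both directions, and their counts are read against 1.92% of all genes higher and 2.41% lower. Of 52 transcription factors of cerebellar and hindbrain neurons, 48 were in the table, 25 passed the filter on low counts, and 5 rose and 6 fell (median log2 fold change 0.20, against 0.01 over all genes tested). Esrrg, an orphan nuclear receptor, rose from 1464 ± 72.4 to 1958 ± 135 CPM (SD, n = 4 libraries, log2 fold change 0.40), and Sox5 rose by 0.58. Ebf3, the relative of Ebf2, fell with it (117, 79.6, 75.8 and 78.7 CPM against 189, 190.5, 166 and 166 CPM, -1.09), and Nfib, Cux2, Pbx3 and Meis1 had log2 fold changes of -0.95, -0.59, -0.57 and -0.52. Nfib was higher in members in Ucn3-Cre replicate 1 (143 against 135 CPM) and lower in the other 3 libraries. It passed against set C (-1.17, adjusted p = 0.0297) but not against sets B and D (-0.86 and -0.84, adjusted p = 0.197 and 0.271). Nfib was also counted in oligodendrocyte nuclei, at 411 CPM.

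Of 41 cadherins and adhesion genes, all tested, 8 rose and 11 fell (median -0.09). Beside Cdh8 and Cntn3, the members had more of Cdh20, Cdh12 and Cdh18 (log2 fold changes 0.97, 0.79 and 0.48) and of the contactins Cntn6 and Cntn5 (0.48 and 0.40). Cntn5 was lower in members in vGluT2-Cre replicate 1 (1127 against 1265 CPM). Cntn5 was also lower in members than in set B (-0.65, adjusted p = 0.00557), and higher than in sets C and D (0.52 and 0.70). They had less of Cdh9, Cdh10 and Cdh7 (-1.45, -1.44 and -0.91) and of the protocadherins Pcdh10 and Pcdh9 (-1.59 and -0.73). Cdh10 stood at 170.1, 84.3, 105 and 145 CPM in members and 372, 247, 332 and 351 CPM in the other nuclei, and Cdh12 at 473, 559, 527 and 394 CPM against 194, 274, 320.2 and 337 CPM. Both genes were separate between the groups. Cdh20 was also counted in oligodendrocyte nuclei, at 1187 CPM, as were Cdh10 at 691 and Pcdh9 at 13436 CPM.

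Of 36 axon guidance genes 29 were tested, and 7 rose and 6 fell (median 0.10). Ntng1, netrin G1, stood at 2406, 2121, 2401 and 2566 CPM in members and 1275, 1298, 1290 and 1301 CPM in the other nuclei (0.86 ± 0.08 SE, adjusted p = 1.01e-10), with no overlap and nearly even levels in the other nuclei. Efna5, an ephrin, and its receptor family member Epha4 rose by 0.82 and 0.70, and the semaphorin co-receptor Nrp1 by 1.02. The netrin receptors Unc5d, Dcc and Unc5c fell, with log2 fold changes of -1.03, -0.81 and -0.67, and so did Epha6 (-0.70). Dcc was counted in oligodendrocyte nuclei at 674 CPM.

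In the list of Kit and other growth factor signalling, 15 of 28 genes in the table were tested, and 2 rose and 4 fell. Nrg1, neuregulin 1, stood at 490.2, 386, 455 and 374 CPM in members and 1149.7, 868, 1730.1 and 1365 CPM in the other nuclei, without overlap (-1.57 ± 0.11 SE, adjusted p = 2.6e-13). Its receptor Erbb4 was higher in members in 3 of 4 libraries, at 1059, 821, 847 and 909 CPM against 686, 490.1, 949 and 544 CPM (0.45, adjusted p = 0.00724), and lower in vGluT2-Cre replicate 1. Erbb4 was not higher in members than in set B or set C (log2 fold changes -0.28 and -0.19, neither passing), but was higher than in set D (1.49). It was counted in oligodendrocyte nuclei at 1143 CPM. The receptor tyrosine kinases Alk and Ntrk3 fell (-0.73 and -0.63). Kit itself did not pass the filter on low counts.

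Of 24 glutamate receptor genes 20 were tested, and 3 rose and 6 fell (median -0.01). The kainate receptor subunit Grik2, the NMDA receptor subunit Grin2a and the AMPA receptor subunit Gria4 rose by 0.45, 0.38 and 0.34. Grik2 and Gria4 did not pass against set B (log2 fold changes -0.04 and 0.16, adjusted p = 0.93 and 0.465). Grin2a did not pass against set C (0.30, adjusted p = 0.356). Grik2 and Gria4 were higher in members than in sets C and D, and Grin2a than in sets B and D. Other kainate receptor subunits, Grik3, Grik1 and Grik4, fell (-0.85, -0.58 and -0.55), as did the metabotropic receptors Grm7 and Grm3 (-0.92 for Grm3). Grm3 was counted in oligodendrocyte nuclei at 1087 CPM. Of 13 GABA and glycine receptor genes tested none rose, and Gabrg1 and Gabrb1 fell (-1.73 and -0.81).

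Of 23 potassium channel genes tested, 1 rose and 7 fell (median -0.09). Kcnq5, a subunit of M-type channels, stood at 30.2, 59.2, 53 and 83 CPM in members against 183, 110.3, 206 and 135 CPM (-1.43). Kcnq3, another such subunit, stood at 118, 126, 183 and 71 CPM against 411, 287, 352 and 277 CPM (-1.33). Neither gene overlapped between the groups. Kcnq3 was counted in oligodendrocyte nuclei at 1240.5 CPM, and the part of oligodendrocyte RNA in its level was not tested. Kcnb2, Kcnj6, Kcnh1, Kcnab1 and Kcnc2 fell too, and Kcnd3, a subunit of A-type channels, rose by 0.60 but was lower in members in Ucn3-Cre replicate 1. Of 22 sodium, calcium and HCN channel genes tested, Cacna1c, the pore of an L-type calcium channel, rose (975, 924, 754 and 904 CPM against 661, 540.0, 556 and 716 CPM, 0.52). The auxiliary calcium channel subunit Cacna2d1 fell (138, 169.6, 232 and 123 CPM against 514, 378, 457 and 332 CPM, -1.28), as did Cacna1e (-0.83).

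Of 42 peptide and amine receptor genes 31 were in the table and 7 tested, and 2 rose and 1 fell. Crhr1, the receptor of corticotropin-releasing hormone and urocortin, stood at 109, 144, 123 and 93.7 CPM in members and 58.6, 61.7, 52.1 and 64.3 CPM in the other nuclei, without overlap (1.01 ± 0.18 SE, adjusted p = 0.000158). It was counted in 68% of members and 34.7% of the other nuclei, 43.4 and 23.4% at 5000 counts, and in 1.47% of oligodendrocyte nuclei. The muscarinic receptors went apart, with Chrm3 higher (0.35) and Chrm2 lower, at 0, 4.72, 24.7 and 0 CPM against 32.8, 25.1, 79.5 and 57.7 CPM. Htr2c, a serotonin receptor, stood at 631, 525, 511 and 568 CPM against 531, 396, 651 and 435 CPM and did not pass (adjusted p = 0.691). Of 6 peptide and granin genes tested 1, Vgf, fell (-1.45).

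In the lists of neurofilaments, perineuronal nets and vesicle release, with 6, 4 and 17 genes tested, no gene fell. Since 2.41% of all genes tested fell, lists this short could hold none by that share alone. Of the 6 genes of the list of neurofilaments and Spp1, all tested, Spp1, osteopontin, and Nefm, the medium neurofilament, rose: Spp1 stood at 188, 370.2, 237 and 491 CPM against 119, 259.7, 111 and 248 CPM (0.80) and Nefm at 154, 380.1, 326 and 503 CPM against 115, 264, 162 and 356 CPM (0.64). The ranges of the groups overlapped, within each library both genes were higher in members, and among members both were lowest in Ucn3-Cre replicate 1. The rise did not hold for all members. In those with counts for Cpne4 and not Maf, Spp1 stood at 74.5, 179.6, 142 and 227 CPM and Nefm at 38.5, 208, 322 and 361 CPM. Spp1 there lay above the other nuclei only in vGluT2-Cre replicate 1, and Nefm only in the vGluT2-Cre libraries, with no test made. Nefm overlaps Nefl in the annotation. Tnr, tenascin R of perineuronal nets, rose by 0.60 (1 of 4 genes tested), and of 17 vesicle release genes Sv2b and Rims1 rose by 0.62 and 0.35. The glutamatergic identity, copine, calcium binding, immediate early and mitochondrial lists had 4, 3, 4, 1 and 3 genes tested and none that passed. The markers Itpr1 of Purkinje cells and Plcb4 of unipolar brush cells rose (0.86 and 0.67). Beside them the Purkinje markers Calb1 and Ppp1r17 were at 0 in the members of all 4 libraries. No gene of the oligodendrocyte, microglia and granule cell lists passed, of 2, 3 and 2 tested.

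Not every list gene kept its call. Of the 103 genes checked for the member contrast, which include the 30 named above and list genes, 40 lost the call with DESeq2. Grik3, Gabrb1, Cacna1e, Sema6d and Kirrel3, all lower in members than in the other nuclei, had log2 fold changes of 0.079, 0.45, 0.18, 0.21 and 0.11 against nuclei of no set alone, so that their direction turned. Kirrel3 was counted in oligodendrocyte nuclei at 801 CPM.

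The members were then set against each of the 3 larger sets in 1 fit over 5356 genes. Against set B, 330 genes were higher (6.16%) and 305 lower (5.69%), against set C 229 (4.28%) and 228 (4.26%), and against set D 113 (2.11%) and 133 (2.48%). Sets B, C and D held different depths, with medians of 6053, 7528 and 8967 counts, and the part of depth in these counts was not tested. By library, set B held 17, 10, 32 and 5 nuclei, set C 12, 17, 22 and 14, and set D 19, 22, 17 and 7. Without vGluT2-Cre replicate 1 the calls numbered 390 for set B, 304 for set C and 155 for set D, and for set D there were 163 without Ucn3-Cre replicate 2 and 135 without the library block.

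Against set B, Aff1, a component of transcription elongation complexes, stood at 212, 155, 153 and 203 CPM in members and 45, 0, 7.83 and 0 CPM in set B (3.60 ± 0.46 SE), and Actn2, an actinin, at 61.6, 73.4, 66.6 and 70 against 0, 0, 8.48 and 0 CPM. Tnfrsf23, Phlda1 and Ddo were the other 3 of the 5 highest, with log2 fold changes of 4.14, 3.41 and 3.26. Their means in set B were 2.96, 8.35 and 9.25 CPM. The set B sums held 83800, 63601, 233535 and 42693 counts, so the fold changes of all 5 genes rest on few counts there. Luzp2 was lower in members than in set B, where it stood at 343, 708, 392 and 654 CPM (-3.58). Kcnb2 stood at 295, 782, 285 and 594 CPM there (-3.38), and Fnbp1l and Tox were lower in members too (-3.37 and -3.35). Esrrg, Crhr1 and Kcnc2 were higher in members (1.89, 2.22 and 1.36), and Htr2c was lower (-0.74, adjusted p = 0.0116). Both mitochondrial transcripts tested, mt-Atp6 and mt-Co1, were also lower in members than in set B. In Ucn3-Cre replicate 1, the library with the iodixanol gradient, the 12 mitochondrial transcripts summed to 0 CPM in members and in the other nuclei. That library therefore cannot show this difference.

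Against set C, Lmo3, a transcriptional cofactor, stood at 150.2, 148, 108 and 109 CPM in members and 10.3, 19.3, 0 and 0 CPM in set C (4.21 ± 0.54 SE), and Adgrl2, a latrophilin, at 292, 227, 302 and 204 against 30.2, 26, 14.6 and 52.4 CPM (3.04). Galnt18, Plekhg1 and Cntn3 were the other 3 highest (3.63, 3.49 and 2.95). Lmo3, Galnt18 and Plekhg1 had means of 7.42, 8.79 and 5.91 CPM in set C, so their fold changes rest on few counts there. Tox was lowest, at 80.5, 77.1, 182 and 80.8 CPM in set C (-4.91), with Tspan18, Trdn and Col24a1 (-4.30, -4.29 and -3.67). The last 3 had means of 2.61, 3.62 and 5.54 CPM in members, so few counts lie behind these values. Htr2c was higher in members than in set C (1.07, adjusted p = 0.000954), the reverse of its difference from set B.

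Against set D, Kif26b stood at 59.2, 30.6, 96 and 45.1 CPM in set D (2.25) and Pdgfc at 15, 33.5, 48.3 and 7.36 CPM (2.13), below their levels in members. Il1rapl2, an accessory protein of the interleukin 1 receptor family, stood at 1286, 684, 830.2 and 685 CPM in members against 189.8, 48.7, 357 and 194 CPM (2.11). Fign and Plekhg1 completed the 5 highest (2.52 and 2.03). Zfp804b was lower by the most firmly measured difference, at 125, 43.3, 119 and 78.1 CPM in members and 1628, 1004, 692 and 447 CPM in set D (-3.39 ± 0.25 SE, adjusted p = 3.03e-12), and Grm7, Ebf2 and Ptprk were lower too (-3.15, -3.06 and -2.82).

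For 6 genes, chosen for their difference from the other nuclei as a whole, the values against each set are given as a description. Grm7 was lower in members than in set B, set C and set D (log2 fold changes -2.03, -3.15 and -3.15), and so were Ebf2 (-2.47, -3.49 and -3.06) and Nrg1 (-1.21, -2.23 and -1.66). Cdh8 was higher than in each (0.87, 1.83 and 1.15), as were Cntn3 (1.36, 2.95 and 1.36) and Crhr1 (2.22 against set B and 1.97 against set D, with 28.5 CPM in set C). The 3 comparisons share the member sums, and sets B, C and D are part of the nuclei by which the genes were chosen. Crhr1 was nearest to members in the nuclei of no set, at 100.4, 82.6, 96.8 and 79.2 CPM, while Grm7 there stood at 207, 136, 321 and 350.0 CPM. Cntnap4 and Fam19a2, low in members, did not pass against set B (adjusted p = 0.481 and 0.165), where they stood at 129.9 ± 51.9 and 138 ± 50 CPM.

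**Figure D4:**
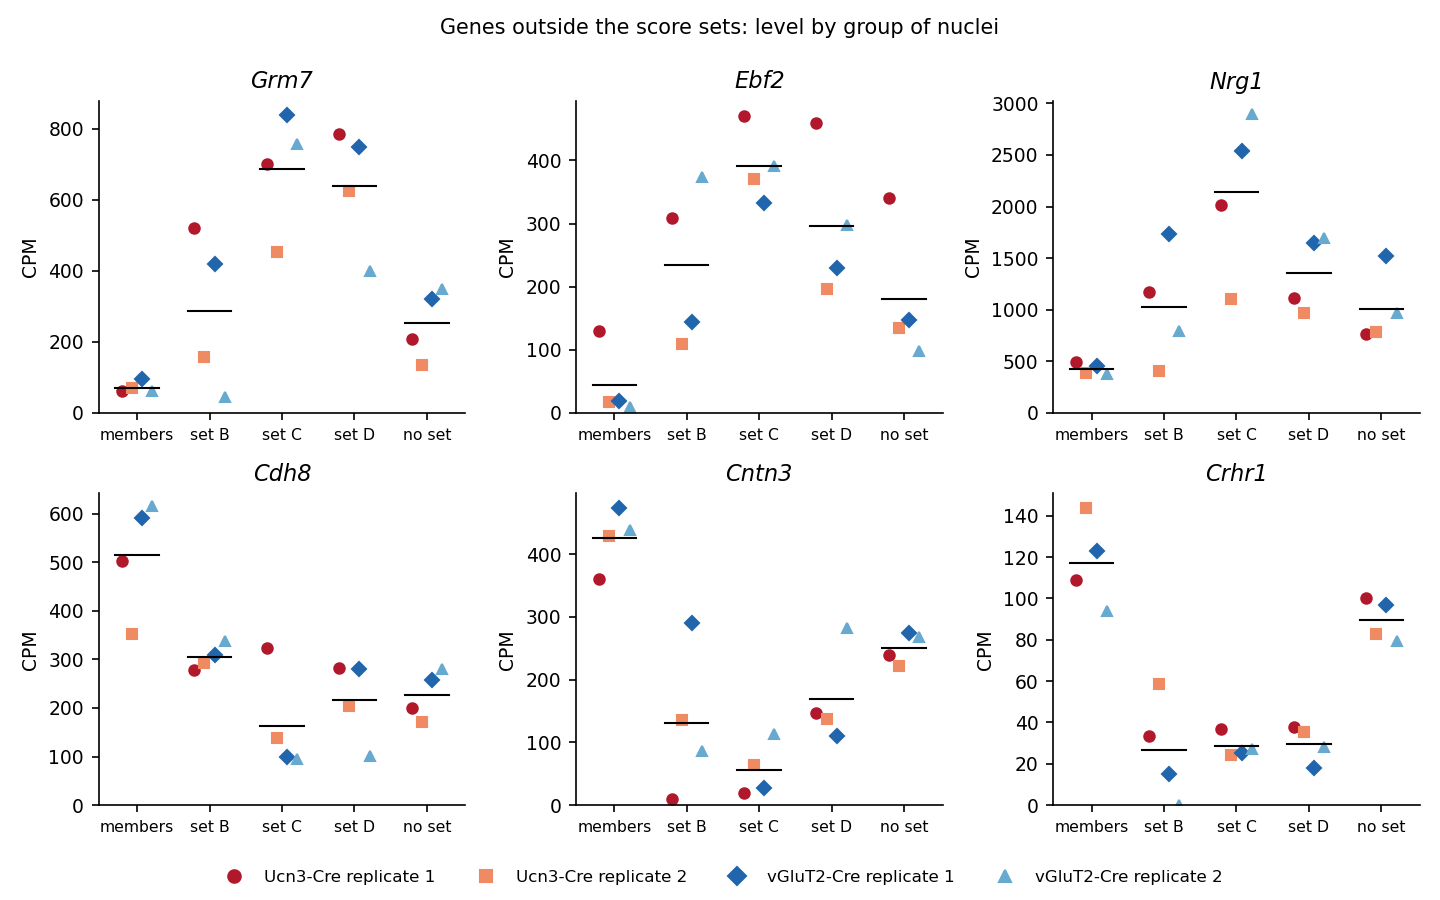
Levels of Grm7, Ebf2, Nrg1, Cdh8, Cntn3 and Crhr1 in CPM (vertical axes) in members, in nuclei of sets B, C and D and in nuclei of no set; each point is 1 library and each bar the mean of 4. Members are low for Grm7, Ebf2 and Nrg1 and high for Cdh8, Cntn3 and Crhr1, with Ebf2 of Ucn3-Cre replicate 1 above the other libraries of members.

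Within the members the 4 set genes did not all go together, with Pearson correlations from -0.54 for Maf and Cpne4 to 0.16 for Maf and Prox1. Maf without Cpne4 was counted in 38 members, Cpne4 without Maf in 40, both in 20 and neither in 5, and all 4 libraries held members of the first 2 kinds (8, 15, 11 and 4 with Maf, and 9, 13, 14 and 4 with Cpne4). Over the 103 members the Pearson correlation of Maf and Cpne4 was -0.54, and over all 480 nuclei it was -0.079; the members were chosen by a sum of both genes, which pushes their values apart, and nuclei share libraries and depth. Kitl was counted in 27 of the 38 and in 34 of the 40, and Prox1 in 26 and in 10. The median depth was 11269 counts in the first kind and 8715 in the second.

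The 2 kinds also differed in genes outside the set, and these are given with no test, since Kirrel3, Kcnc2, Gabrb1, Gabra3 and Nfib were picked by their values and the groups came from the rule's own genes. Kirrel3, an adhesion protein of the immunoglobulin family, stood at 0, 30.7, 115 and 0 CPM in members with Maf and 625, 414, 546 and 871 CPM in members with Cpne4. Htr2c stood at 170.1, 312, 301 and 259 CPM against 1097, 773, 596 and 871 CPM, and Kcnc2, a fast potassium channel subunit, at 11.3, 108, 179 and 0 CPM against 542, 152, 369.7 and 493 CPM. Kirrel3 and Htr2c did not overlap between the kinds, and Kcnc2 overlapped through Ucn3-Cre replicate 2 and vGluT2-Cre replicate 1. The GABA receptor subunits Gabrb1 and Gabra3 went the same way, at 48.6 ± 29.6 against 258 ± 56.9 and 10.5 ± 13.2 against 82.9 ± 32 CPM (SD, n = 4). Spp1 was higher with Maf, at 262, 474, 368 and 811 CPM against 74.5, 179.6, 142 and 227 CPM, and so was Nfib, at 233, 113, 149.8 and 58.2 CPM against 6.9, 65.8, 8.48 and 45.3 CPM. The heavy neurofilament Nefh stood at 113 ± 23.1 against 43.3 ± 47 CPM and Acan, aggrecan of perineuronal nets, at 47.3 ± 13.9 against 13 ± 22.1 CPM. Slc17a6, Cdh8 and Crhr1 had means of 243 ± 145 and 240.1 ± 99, 574 ± 107 and 502 ± 234, and 115 ± 37.3 and 87.7 ± 21.7 CPM. By genes outside the sets, 34.9% of the neighbours of members with Maf had Maf without Cpne4 and 12.5% had Cpne4 without Maf, while for members with Cpne4 the shares were 14.5% and 27.5%. The 2 kinds were 7.92% and 8.33% of the table, so each kind was above its share of the table among the neighbours of the other too. Set B nuclei were 2.63% of the neighbours of the first kind and 10.2% of the second, both below the share of set B in the table (64 of 480 nuclei).

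**Figure D5:**
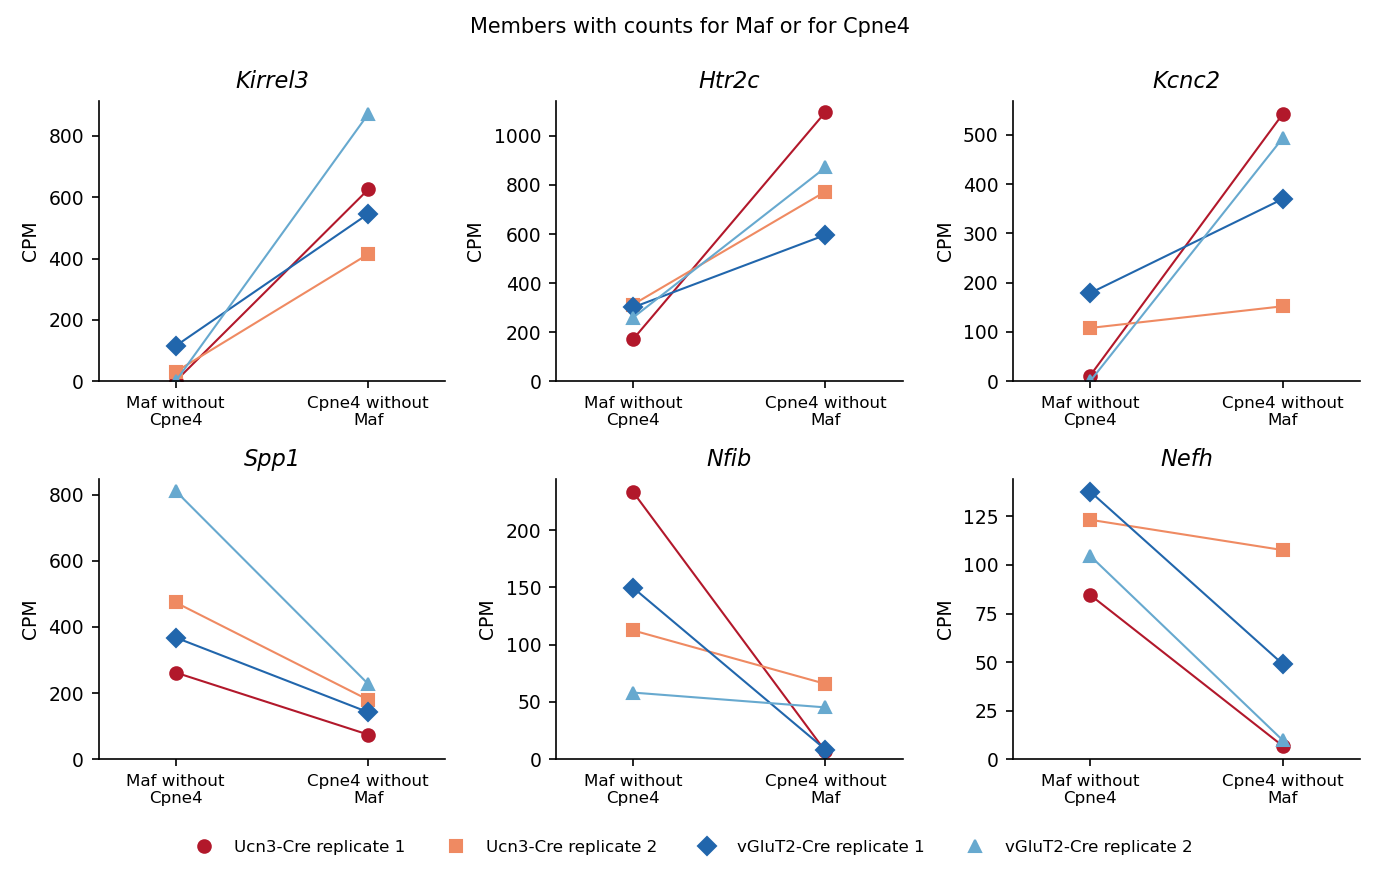
Levels of Kirrel3, Htr2c, Kcnc2, Spp1, Nfib and Nefh in CPM (vertical axes) in members with counts for Maf and not Cpne4 and in members with counts for Cpne4 and not Maf; lines join the values of 1 library. Kirrel3, Htr2c and Kcnc2 rise and Spp1, Nfib and Nefh fall from left to right in all 4 libraries, which is how Kirrel3, Kcnc2 and Nfib were picked.

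Between the lines no gene passed within members. Of 6078 genes tested, 0 were higher (0%) and 0 lower (0%) in the Ucn3-Cre than in the vGluT2-Cre libraries by edgeR, with 196 at an unadjusted p under 0.05, and DESeq2 called 0, with 34. The count depended on the libraries and the filter: it was 12 when Ucn3-Cre replicate 1 was dropped and 17 when replicate 2 was, 11 and 50 when vGluT2-Cre replicates 1 and 2 were, and 23 without the filter on low counts. Slc17a6 and YFP were lower in the Ucn3-Cre members (log2 fold changes -0.80 and -0.88) without passing (adjusted p = 0.997 for both). The line cannot be told apart from age here.

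The log2 fold change of members against other nuclei itself differed between the lines for 19 of 7647 genes by edgeR. It was higher, or less negative, in Ucn3-Cre for 12 genes (0.157%) and lower, or more negative, for 7 (0.0915%). This sign gives a direction and not the size of the difference within a line. DESeq2 called 0, with 28 at an unadjusted p under 0.05, and edgeR called 11 or 5 when Ucn3-Cre replicate 1 or 2 was dropped, and 8 when vGluT2-Cre replicate 1 was. Cntn4, a contactin, stood at 767, 492, 432 and 439 CPM in members and 339, 258, 564 and 361 CPM in the other nuclei, so that it was higher in members in both Ucn3-Cre libraries and lower or little higher in the vGluT2-Cre libraries (1.14 ± 0.21 SE, adjusted p = 0.00605). Grin3a, an NMDA receptor subunit, stood at 168, 98.6, 61.8 and 53.3 CPM against 83, 64.1, 116 and 91.7 CPM, above the other nuclei in the Ucn3-Cre libraries and below them in the vGluT2-Cre libraries. Cadps2, a protein of dense-core vesicle release, stood at 4.38, 3.05, 39.8 and 40.5 CPM against 64.6, 42.8, 43.1 and 24.3 CPM, low in the Ucn3-Cre members (-3.92 ± 0.80 SE, adjusted p = 0.0118). Dcc, Cntn5 and Kirrel3 of the fixed lists were also called (1.00, 0.78 and -1.12).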

How the data were processed

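The deposited values for 15632 genes per nucleus were taken for expected counts, judged from the values: 95.7% of values above 0 lie within 0.5 below a whole number, and the step that made them is not given in the sources used here. The authors used Cell Ranger 3.1.0, Seurat 3.2 and mm10, per the submitters' processing notes. Values of the vglut2 table equal those of the library tables. The members, gene lists and tests were chosen with earlier results of these data known.

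Nuclei were scored and assigned by the rule, without a doublet filter (Scrublet in scanpy 1.11.5 called 0.0699 to 0.425% of nuclei, so the highest scores, 0.8% per 1000 nuclei, were marked instead). Sums per library and group were rounded and put through the quasi-likelihood test of edgeR 4.0.16 in R 4.3.3 (TMM scaling, genes kept by filterByExpr, Benjamini-Hochberg adjustment, threshold 0.05), with the library as block except between the lines. The fit was tested on simulated data. Replicates are separate libraries, so p-values measure the spread between these 4. DESeq2 1.42.0, other filters, thresholds and scalings, thinning to 5000 counts, sets without 1 gene, and leaving out libraries were the alternatives. Genes were named by a rule: the 15 highest and 15 lowest (5 and 5 in the smaller comparisons) by log2 fold change among those called, in the same direction in all libraries and with at least 30 CPM in the higher group, without gene models, plus up to 4 list genes each way; further list genes were named after their values were seen, and a few genes that the rule names are not reported here. Shares carry 95% exact intervals. CPM in the text are unscaled by TMM. Libraries held 4291 to 6587 nuclei and median depths of 1730 to 3206 counts.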

Additional observations from a re-analysis of the deposited data

Results flagged for a closer look

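In 34 genes the log2 difference of CPM + 1 between members and other nuclei was looked at in each of the 4 libraries, and 1 gene had a library that stood apart by Dixon's test, where chance marks about 1 in 20 groups. That gene was Slit3, whose difference was 0.74 in vGluT2-Cre replicate 2 and 1.12, 1.18 and 1.14 in the other libraries.

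The interaction test of edgeR called 19 genes whose member contrast differed between the lines, and the 10 named by the rule are given here. In Ucn3-Cre minus vGluT2-Cre, the log2 differences were 3.44 for Shisa9, an auxiliary protein of AMPA receptors, 2.95 for Plxdc2, 1.64 for Grin3a, 1.15 for Slc24a3, a sodium and calcium exchanger, and 1.14 for Cntn4. They were -3.92 for Cadps2, -2.28 for Mlec, -1.44 for Pacs1, -1.40 for Zfp804b and -1.29 for Nell1. Within the libraries, Shisa9 differed by -1.55, 0.71, -2.72 and -6.40 between members and other nuclei, and its 4 values span both signs within the Ucn3-Cre line. Mlec differed by -0.81, -0.03, 2.55 and 0.73, and its level of 240 CPM in the members of vGluT2-Cre replicate 1 stood above 22.1, 29.2 and 61.4 CPM in the others. Plxdc2 differed by -0.30, -1.16, -3.29 and -3.76, and it was counted at 1029 CPM in oligodendrocyte nuclei. The part of oligodendrocyte RNA in that gene was not tested. Zfp804b and Nell1 were lower in members in all 4 libraries, by more in the Ucn3-Cre libraries (-2.66, -3.02, -1.42 and -1.61 and -2.17, -1.99, -0.58 and -1.16). DESeq2 called none of the 10 genes.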

How the results depend on the processing

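Calls for members against the other nuclei numbered 331, and 215 to 333 with 1 library left out; they were 131 with DESeq2, 116 without the library block, 207 after thinning, 569 against nuclei of sets B to E alone and 188 against nuclei of no set alone (a comparison chosen after the data were seen). Without single libraries they numbered 390 to 521 for set B (635 in all), 304 to 370 for set C (457) and 155 to 213 for set D (246), where no library block gave 135. The line comparison within members gave 0, against 11 to 50 without single libraries, 23 without the low count filter, 12 with genes counted in every library and 4 with the replicate block. Same-numbered libraries share only a number (correlation of deviations 0.0461 over 6078 genes, 2 pairs). The interaction gave 19, against 5 to 20 without single libraries, 0 with DESeq2 and 30 without the low count filter. Against nuclei of no set, the log2 fold changes of Grik3 (0.079), Gabrb1 (0.45), Cacna1e (0.18), Sema6d (0.21) and Kirrel3 (0.11) turned positive. Uncalled values that changed sign were Slc17a6 without vGluT2-Cre replicate 2 (-0.021, and up to 0.22 without other single libraries), without Prox1 (-0.038) or Cpne4 (-0.082) in the set, without nuclei with inhibitory markers (-0.0099) and against sets B to E (-0.027); YFP without Maf (-0.27), Prox1 (-0.054) or Cpne4 (-0.18) in the set and against sets B to E (-0.034); Htr2c without Cpne4 in the set (-0.23); and Crhr1 between the lines without Ucn3-Cre replicate 2 (-0.0036, and up to 0.50 without other single libraries). The cause was not tested. The mean share of members stayed higher in Ucn3-Cre, by 3.02 to 9.42 points, but the libraries of the lines overlapped without Kitl, Prox1 or Cpne4 in the set and with no threshold. Depth limits genes under 30 CPM, since member sums held 160576 to 403538 counts.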

Other observations

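The half-site TGCTGA of Maf proteins was searched on both strands of the RefSeq windows from 250 bases before to 50 bases after each transcription start (GRCm38.p6, chromosome 18 left out). It was found in 19.5% of 32851 windows, in 0 of 5 windows of Kitl, Prox1 and Cpne4, in 2 of 15 windows of 13 of the 15 highest genes, and in 4 of 8 windows of 7 of the 15 lowest genes. A match is only a run of letters, no window of Maf was used here, and no test was made.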
